A study of Homo sapiens with 30 samples.

Results

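Neural stem and glial identity genes were followed in 2 glioblastoma cell lines exposed to interferon-γ (IFN-γ). The 9 genes were taken by symbol: SOX2, SOX9, NES, OLIG1, OLIG2, POU3F2, SALL2, NFIA and GFAP, out of 61471 listed genes. RNA of U87-MG (U87) and U251-MG (U251), human tumour lines grown in serum medium, was sequenced in 30 libraries, of which 28 were used. The groups were cells never given the cytokine (Untreated), cells given it for 3, 14 or 28 days (D3, D14, D28), and cells withdrawn from it after 14 days and sampled 14 days later (D28WO). Each group of U251 held 3 libraries, and in U87 the D3 and D14 groups held 2 each and the others 3. The labels set the dose at 1 µg/mL in 1 field and write a volume unit in another, and they place the Untreated cells at day 3. The study's methods differ from the labels on both, with a far lower dose, in ng per mL, and Untreated cells collected at the start of exposure, and which holds for these libraries cannot be told here. Both lines carry no engineered change according to the labels, and each is a single long-passaged line whose identity the study did not test by STR typing. The study describes the replicates as separately treated cultures.

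SOX2, SOX9, POU3F2, SALL2 and OLIG2 encode transcription factors of neural stem and glial progenitor cells, and a set of them is known for sustaining the stem-like state of glioblastoma cells. NFIA drives the switch towards glial fate, NES encodes the intermediate filament nestin of neural progenitors, and GFAP encodes the intermediate filament of astrocytes. OLIG1 and OLIG2 are neighbouring genes of the oligodendrocyte lineage. IFN-γ acts through its receptor and JAK kinases on transcription at GAS elements, and IRF1, itself a transcription factor, is one of its direct targets.

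The values were TPM, transcript numbers scaled by length and to a common total per library, which allow genes to be compared per length but keep no sequencing depth, so a gene listed at 0 has no lowest detectable level. Genes above 0 numbered 24223 to 28649 per U87 library and 24450 to 30246 per U251 library, and the Untreated libraries of U87 (24223 to 25459) lay below every treated U87 library. In U251 the D14 and D28 libraries (27763 to 29771 and 28955 to 30246) lay above those of Untreated (24450 to 27187) and D28WO (25633 to 26378). The correlation between libraries of a group was 0.959 to 0.974. The IFN-γ target IRF1 was near its Untreated level in U87 at D14 and high in D28WO of both lines. In U87 at D14, where the label gives IFN-γ, IRF1 was at 122 ± 17.1 TPM (SD, n = 2) against 133 ± 2.78 (n = 3) in Untreated and 448 ± 3.34 (n = 2) at D3. At D28WO, which had been without IFN-γ, IRF1 was at 509.6 ± 46.5 TPM in U87 and 620.1 ± 38.7 in U251 (n = 3 each), near the 479.7 ± 51.7 and 603 ± 61.6 of D28. U251 at D14 held 300.3 ± 18.4 TPM of IRF1, against 141 ± 3.90 in Untreated (n = 3 each). The annotated span of IRF1 overlaps that of IRF1-AS1 on the opposite strand, which averaged 38.3 TPM over the U87 libraries and 58.6 over those of U251. The level of 1 target gene does not test the labels, and the groups are called by them here.

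Differences were tested within a line with limma on log2(TPM + 1), over all 22918 genes of U87 and 23667 of U251 with a mean of at least 0.5 TPM, and a gene was called at a Benjamini-Hochberg adjusted p under 0.05. Of the 9 identity genes, 7 reached this mean in U251 (not OLIG1 and OLIG2) and 6 in U87 (not SOX2, POU3F2 and OLIG1). All genes tested had a median log2 fold change against Untreated of 0.13 (D3), 0.10 (D14), 0.16 (D28) and 0.02 (D28WO) in U251, and of 0.20, 0.15, 0.19 and 0.25 in U87. The tables of the lines were normalized separately, so levels of U251 and U87 are set side by side without a test. All 4 comparisons with Untreated share the Untreated libraries of the line. In RNA of whole cultures, fewer cells of a type and less RNA per cell cannot be told apart.

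In U251 most of the identity genes fell under IFN-γ. At D3, 6 of the 7 tested were lower and none was higher, where 16.0% of all genes were called lower and 24.9% higher. At D28, 6 were lower and NFIA was higher, where 14.7% of all genes were called lower and 25.9% higher. At D14, 4 were lower (SOX2, SOX9, NES and GFAP) and NFIA was higher, where 7.31% of all genes were called lower and 13.8% higher. At D28WO, 4 were lower (SOX9, NES, POU3F2 and GFAP) and none was higher, where 13.4% of all genes were called lower and 14.3% higher. The 7 genes had a median log2 fold change of -1.12 (D3), -0.46 (D14), -0.999 (D28) and -0.47 (D28WO). With the further limit of an absolute log2 fold change over 1, the counts of calls became 4, 1, 4 and 2, where 14.3%, 5.76%, 15.2% and 7.45% of all genes passed it in either direction.

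**Figure D1:**
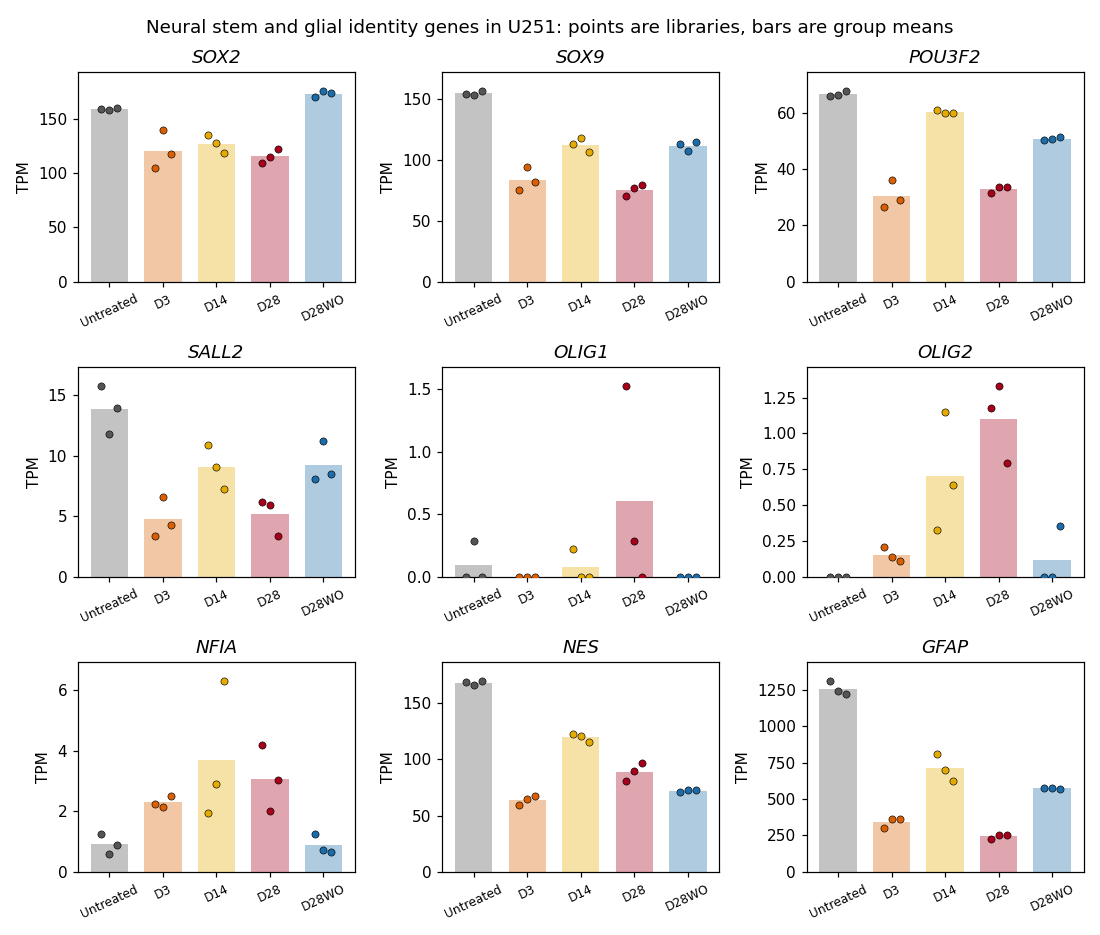
TPM of the 9 identity genes in U251, with 1 panel a gene (y axis, TPM from 0, own scale in each panel) and the groups along the x axis. Points are libraries (n = 3 a group) and bars are group means. GFAP, NES, SOX9, POU3F2 and SALL2 have all Untreated libraries above all others, SOX2 lies highest at D28WO, and OLIG2 and OLIG1 reach at most 1.52 TPM.

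GFAP had the highest level of the 9 genes in U251. Its libraries read 1309, 1246 and 1219 TPM in Untreated, 299.5, 365 and 361 at D3, 809.9, 703 and 627 at D14, 222, 253 and 255 at D28, and 574, 574 and 570.2 at D28WO. No 2 groups overlapped, in the ascending order D28, D3, D28WO, D14 and Untreated. Against Untreated the mean was 3.68-fold lower at D3, 1.76-fold lower at D14, 5.17-fold lower at D28 and 2.20-fold lower at D28WO. The log2 fold change was -1.88 (SE 0.0909), -0.83, -2.37 and -1.13, with adjusted p = 2.0e-09, 2.8e-05, 1.7e-10 and 5.5e-07 (limma with Benjamini-Hochberg adjustment). Relative to the median of all genes these changes were -2.01, -0.92, -2.53 and -1.15.

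NES was lower than Untreated in all 4 other groups of U251, and stood at a lower level at D28WO than at D28. Its libraries read 169, 166 and 169.6 TPM in Untreated, 59.6, 65.0 and 67.9 at D3, 123, 121 and 115 at D14, 80.5, 89.5 and 97.3 at D28, and 71.4, 72.9 and 72.6 at D28WO. All groups were apart, with D3 lowest, then D28WO, D28, D14 and Untreated. The log2 fold change against Untreated was -1.38, -0.49, -0.91 and -1.21 (SE 0.0674) at D3, D14, D28 and D28WO, with adjusted p = 2.3e-09, 0.00018, 1.3e-07 and 1.3e-08 (limma, Benjamini-Hochberg).

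Among the transcription factors, SOX9, which acts in glial specification, held 155, 154 and 157 TPM in Untreated, 75.5, 94.0 and 81.7 at D3, 113, 118 and 107 at D14, 70.6, 76.9 and 79.5 at D28, and 113, 107 and 115 at D28WO. Untreated was above all other groups, D3 and D28 overlapped at the low end, and D14 and D28WO overlapped between them. Against Untreated, SOX9 changed by -0.89 (D3), -0.46 (D14), -1.03 (D28) and -0.47 (D28WO) on the log2 scale (SE 0.0746; limma, adjusted p = 5.4e-07, 0.00068, 1.1e-07 and 0.00031). POU3F2, a neural POU-domain factor also called BRN2, read 66.3, 66.5 and 68.0 TPM in Untreated, 26.5, 36.2 and 29.1 at D3, 61.0, 60.1 and 60.2 at D14, 31.4, 33.9 and 33.7 at D28, and 50.5, 50.7 and 51.5 at D28WO. Its D3 and D28 libraries overlapped and lay below the rest. POU3F2 fell by 1.12 at D3, by 1.00 at D28 and by 0.39 at D28WO on the log2 scale (limma, adjusted p = 3.5e-07, 9.5e-07 and 0.0050), and the D14 libraries, although all below Untreated, did not pass (adjusted p = 0.28, and 0.042 in a fit of those 2 groups alone).

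SALL2, a zinc finger factor of neural progenitors, was lower in level and more spread. Its libraries read 15.8, 11.8 and 14.0 TPM in Untreated, 3.33, 6.62 and 4.31 at D3, 10.9, 9.10 and 7.22 at D14, 6.21, 5.96 and 3.40 at D28, and 8.11, 11.2 and 8.45 at D28WO. All other groups were below Untreated, with D3 and D28 overlapping at the low end. SALL2 fell by 1.40 at D3 and by 1.29 at D28 on the log2 scale (SE 0.249; limma, adjusted p = 0.00048 and 0.00094), and the tests at D14 and D28WO gave adjusted p = 0.13 each.

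SOX2, the best known factor of neural stem cells, had the smallest change among the 6 genes called lower at D3 and D28. Its libraries read 159, 158 and 160.2 TPM in Untreated, 105, 139.6 and 117 at D3, 135, 128 and 118 at D14, 109.7, 115 and 122 at D28, and 169.6, 176 and 173 at D28WO. D3, D14 and D28 overlapped each other below Untreated, and D28WO lay above it. SOX2 was 1.32-fold lower at D3, 1.25-fold at D14 and 1.37-fold at D28, with log2 fold changes of -0.41, -0.33 and -0.46 (SE 0.0843; limma, adjusted p = 0.0016, 0.014 and 0.00066). The D14 call was lost without D14 replicate 3 (log2 fold change -0.28, adjusted p = 0.065, the highest over 14 alternatives, which ranged from 0.0039). At D28WO the difference from Untreated was 0.12 on the log2 scale (95% interval -0.06 to 0.30; limma, adjusted p = 0.34), and a fit of those 2 groups alone called it higher (adjusted p = 0.031, with 0.031 to 0.56 over all alternatives).

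NFIA was the only gene of the 7 called higher than Untreated in U251, at a level near 1 TPM in Untreated. Its libraries read 1.26, 0.589 and 0.887 TPM in Untreated, 2.24, 2.15 and 2.50 at D3, 1.94, 2.89 and 6.29 at D14, 4.17, 2.00 and 3.02 at D28, and 1.27, 0.731 and 0.640 at D28WO. D3, D14 and D28 overlapped each other above Untreated, and D28WO overlapped Untreated. The mean was 4.07-fold higher at D14 (2.65-fold without D14 replicate 3) and 3.37-fold higher at D28, and the log2(TPM + 1) fold changes of 1.21 and 1.07 (SE 0.318) understate these ratios at such low levels (limma, adjusted p = 0.015 and 0.016). D3 stood at 2.30 ± 0.180 TPM (SD, n = 3) with adjusted p = 0.060 (limma), and was called with a pseudocount of 0.1 and in a fit of those 2 groups alone (adjusted p = 0.039 and 0.025). Both calls were lost without Untreated replicate 2 (1.08 and 0.94, adjusted p = 0.061 and 0.060), the D14 call without D14 replicate 3 (0.84, adjusted p = 0.0697) and the D28 call without D28 replicate 1 (0.88, adjusted p = 0.069). Under quantile normalization they were 0.89 and 0.52 (adjusted p = 0.084 and 0.25), and over all alternatives of the 2 results the adjusted p ran from 0.0067 to 0.25. NFIA and OLIG2 were higher in the D14 and D28 libraries, which also had more genes above 0 than Untreated and D28WO, and the part of this in their levels was not tested.

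OLIG2 and OLIG1 stayed at or near 0 in U251. OLIG2 was listed at 0 in all 3 Untreated libraries and read 0.208, 0.138 and 0.107 TPM at D3, 0.323, 1.15 and 0.642 at D14, 1.17, 1.33 and 0.796 at D28, and 0, 0 and 0.354 at D28WO. The D14 and D28 libraries overlapped each other and lay above those of the other groups, except that 1 D28WO library was above 1 of D14. With no filter on low values, limma gave adjusted p = 0.017 for D14 and 0.00072 for D28 against Untreated. In the same fit OLIG2 was lower at D28WO than at D28 and D14 (log2 fold change -0.92 and -0.60, limma, adjusted p = 0.0034 and 0.043). No fold is given against a group listed at 0. OLIG1 was above 0 in 4 of 15 libraries, and its highest value, 1.52 TPM, was in 1 D28 library beside 0.285 and 0.

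Between the treated groups of U251, most of these genes were higher at D14 than at D3 and lower again at D28. From D3 to D14, SOX9, NES, POU3F2, SALL2 and GFAP were higher by 0.43, 0.89, 0.97, 0.83 and 1.06 on the log2 scale, 5 of 7 tested where 12.8% of all genes were called higher and 12.6% lower (limma, adjusted p = 0.00086, 6.7e-07, 4.2e-06, 0.025 and 2.2e-06). From D14 to D28, SOX9, NES, POU3F2 and GFAP fell by 0.57, 0.43, 0.85 and 1.54 on the log2 scale, 4 of 7 where 9.48% of all genes were called lower and 11.3% higher (limma, adjusted p = 9.9e-05, 0.00048, 1.5e-05 and 7.2e-08). The SALL2 call from D3 to D14 was lost without D3 replicate 1 or 3 or D14 replicate 1 or 2, where its log2 fold change was 0.65, 0.79, 0.70 and 0.82 and the adjusted p 0.062 to 0.10 (0.0092 to 0.10 over all alternatives).

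After withdrawal, U251 at D28WO differed from D28 in all 7 genes tested. SOX2, SOX9, POU3F2, SALL2 and GFAP were higher by 0.58, 0.56, 0.61, 0.75 and 1.23 on the log2 scale (limma, adjusted p = 0.00019, 9.0e-05, 0.00020, 0.036 and 5.2e-07), where 10.3% of all genes were called higher. NES and NFIA were lower by 0.29 and 1.09 (limma, log2 fold changes -0.29 and -1.09, adjusted p = 0.0050 and 0.020), where 18.8% of all genes were called lower. The NES call was lost with median-ratio size factors (-0.21, adjusted p = 0.054, and 0.0014 to 0.054 over all alternatives). All genes tested had a median log2 fold change of -0.12 between D28WO and D28, and relative to it NES was at -0.17. Against D14, the last point before withdrawal, SOX2 was higher by 0.45 and NES, NFIA and GFAP fell by 0.72, 1.23 and 0.31 (limma, adjusted p = 0.0014, 4.2e-06, 0.011 and 0.023), where 10.6% of all genes were called higher and 15.8% lower. GFAP and NES thus stood at 45.5% and 43.0% of their Untreated means at D28WO, SOX9, POU3F2 and SALL2 at 72.1%, 76.0% and 66.9%, NFIA at 96.5% and SOX2 at 109%.

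Several of these calls lay near the threshold and were lost with 1 library fewer, mostly with little change in the fold. For SALL2 between D28WO and D28, leaving out D28 replicate 3 or D28WO replicate 1, 2 or 3 gave log2 fold changes of 0.52, 0.83, 0.62 and 0.81 (adjusted p 0.052 to 0.16, and 0.0026 to 0.16 over all alternatives). For NFIA in the same comparison, leaving out D28 replicate 1 or 3 or D28WO replicate 2 or 3 gave -0.90, -1.08, -1.04 and -1.0 (adjusted p 0.052 to 0.080, and 0.015 to 0.20 over all alternatives). NFIA between D28WO and D14 was -0.86 without D14 replicate 3 (adjusted p = 0.051, with 0.0045 to 0.069 over all alternatives). GFAP between D28WO and D14 kept its call only without D14 replicate 3, and the other 5 left-out libraries (D14 replicates 1 and 2, D28WO replicates 1, 2 and 3) gave -0.21, -0.31, -0.31, -0.31 and -0.30 (adjusted p 0.051 to 0.10, and 0.00078 to 0.10 over all alternatives).

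Letters of the promoters are shown for SOX2, POU3F2 and NES, which stood above 60 TPM in Untreated U251 and were lower at D3 and D28, and for IRF1 as an IFN-γ target. Each is the 250 bases before the gene's start in RefSeq (GRCh38.p14), 5′ to 3′ on the gene's strand: SOX2 at chr3:181711675-181711924 (+), POU3F2 at chr6:98834324-98834573 (+), NES at chr1:156677408-156677657 (-) and IRF1 at chr5:132490774-132491023 (-). Capitals mark matches on either strand to 4 motifs that were searched: the GAS element TTCNNNGAA, the interferon-stimulated response element (GAAA, 2 bases of any kind, GAAA), the GC box GGGCGG and the SOX core ACAAAG.
SOX2: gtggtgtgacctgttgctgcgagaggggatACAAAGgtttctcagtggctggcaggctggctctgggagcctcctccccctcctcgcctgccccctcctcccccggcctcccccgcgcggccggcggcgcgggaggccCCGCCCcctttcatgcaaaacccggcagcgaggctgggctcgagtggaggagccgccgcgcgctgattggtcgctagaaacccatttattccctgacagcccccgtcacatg
POU3F2: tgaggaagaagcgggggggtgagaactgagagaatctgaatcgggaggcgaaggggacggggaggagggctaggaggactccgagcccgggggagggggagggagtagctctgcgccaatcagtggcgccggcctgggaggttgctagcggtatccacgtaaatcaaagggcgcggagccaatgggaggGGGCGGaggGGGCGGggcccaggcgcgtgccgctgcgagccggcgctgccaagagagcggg
NES: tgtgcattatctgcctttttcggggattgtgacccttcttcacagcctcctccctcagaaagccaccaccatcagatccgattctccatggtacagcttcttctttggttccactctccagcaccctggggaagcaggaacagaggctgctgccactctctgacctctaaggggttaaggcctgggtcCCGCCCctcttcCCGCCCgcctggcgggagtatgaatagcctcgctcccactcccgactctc
IRF1: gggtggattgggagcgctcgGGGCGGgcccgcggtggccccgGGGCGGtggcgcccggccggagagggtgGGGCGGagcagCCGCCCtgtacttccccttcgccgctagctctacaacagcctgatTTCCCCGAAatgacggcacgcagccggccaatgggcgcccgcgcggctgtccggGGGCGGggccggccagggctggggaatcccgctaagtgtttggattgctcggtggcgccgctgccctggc
The IRF1 window held a GAS match 124 bases before the start and 5 GC boxes. SOX2 held 1 SOX core and 1 GC box, and POU3F2 and NES held 2 GC boxes each. Of 35116 windows of this length, 6.57% held the GAS letters, 3.02% the interferon-stimulated response element, 42.6% the GC box and 13.7% the SOX core. None of the 7 windows of 5 identity genes in the table (SOX2, POU3F2, NES, SALL2 and 3 starts of NFIA) held the GAS or the response element letters, which says only that these letters are not in these windows. SOX9, OLIG1, OLIG2 and GFAP had no entry matched.

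In Untreated U87 the identity genes highest in level were NES and SOX9, at 41.0 ± 2.69 and 33.9 ± 2.55 TPM (SD, n = 3). Both were below their Untreated U251 levels of 168 ± 1.72 and 155 ± 1.57 TPM (n = 3). In Untreated U87, SOX2 was at 0.219 ± 0.207 TPM and POU3F2 at 0.255 ± 0.184, and GFAP at 4.84 ± 2.32 (SD, n = 3), whereas U251 held 159 ± 1.20, 66.9 ± 0.891 and 1258 ± 46.3. OLIG2 was at 7.16 ± 2.28 TPM in Untreated U87. Of the other glioblastoma markers, VIM and EGFR were at 1307 ± 132 and 58.9 ± 3.41 TPM in Untreated U87, where S100B was at 1.05 ± 1.09. In Untreated U251, VIM, EGFR and S100B were at 1141 ± 21.0, 101 ± 3.86 and 184 ± 13 TPM. U87 thus held NES and OLIG2 with SOX2 near 0, and U251 held NES, SOX2 and GFAP with OLIG2 listed at 0.

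In U87, 0 or 1 of the 6 identity genes tested were called during exposure and 4 at D28WO. At D3 and at D14 limma called 0 of 6, where 12.4% and 4.14% of all genes were called higher and 4.28% and 1.02% lower, and 1 gene had an unadjusted p under 0.05 in each (GFAP at D3, NES at D14). At D28 limma called 1 of 6, GFAP as higher, where 17.2% of all genes were called higher and 6.55% lower. At D28WO, OLIG2 and GFAP were called higher and SOX9 and NES lower, where 28.6% of all genes were called higher and 13.4% lower. With 6 genes, the counts at D3, D14 and D28 and the 2 higher at D28WO are near these shares and do not set the identity genes apart, and a gene not called is not shown to be unchanged. The 6 genes had a median log2 fold change of 0.04 (D3), -0.17 (D14), 0.11 (D28) and -0.10 (D28WO). With the further limit of an absolute log2 fold change over 1, the counts were 0, 0, 1 and 3, where 6.23%, 2.10%, 7.38% and 14.9% of all genes passed it in either direction.

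**Figure D2:**
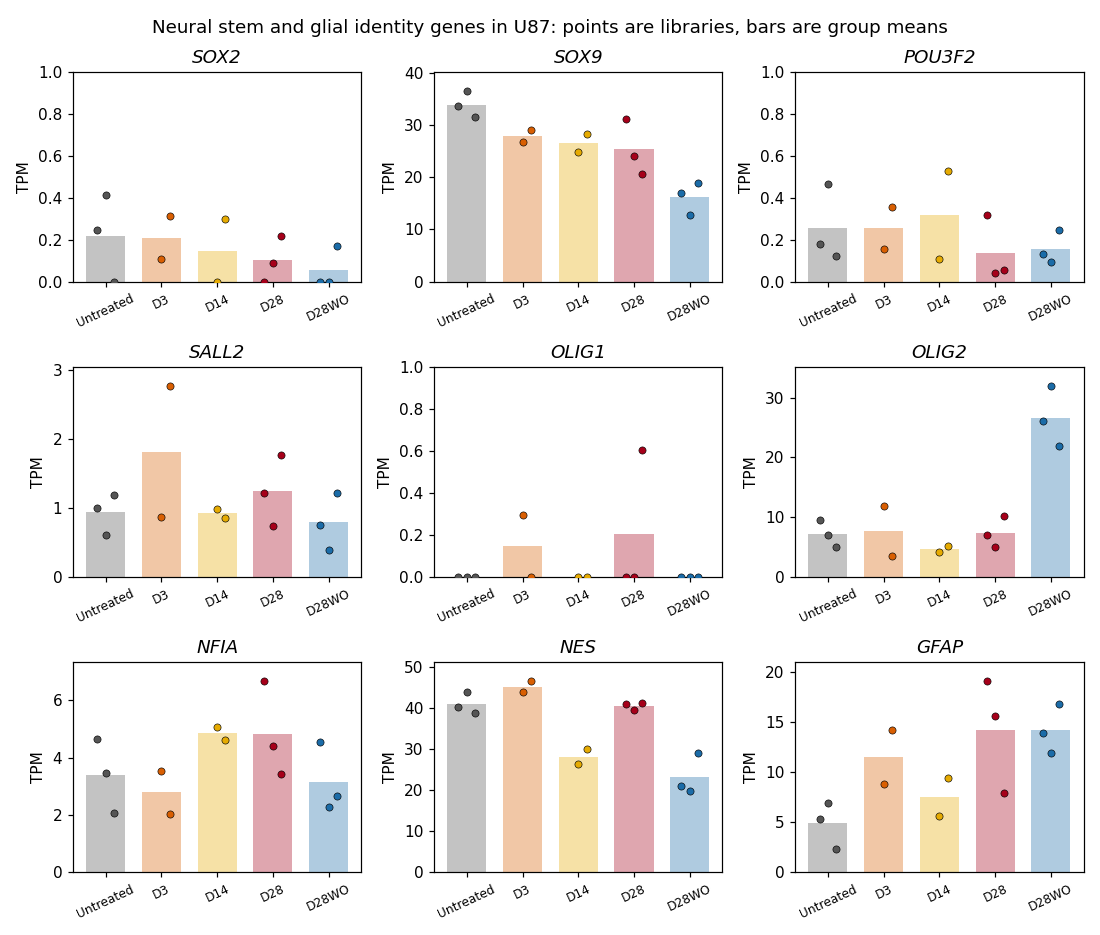
TPM of the 9 identity genes in U87, drawn as for U251 (y axis, TPM from 0, own scale in each panel). Points are libraries (n = 2 at D3 and D14, n = 3 otherwise) and bars are group means. OLIG2 has its 3 D28WO libraries at 22 to 32 TPM, above every other library, and SOX9 has its 3 at 12.8 to 19.0, below every other.

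OLIG2, a basic helix-loop-helix factor of oligodendrocyte progenitors, separated D28WO from all other U87 groups. Its libraries read 9.49, 7.06 and 4.94 TPM in Untreated, 11.8 and 3.51 at D3, 4.20 and 5.16 at D14, 7.01, 4.98 and 10.1 at D28, and 26.1, 32 and 22 at D28WO. The first 4 groups overlapped, and each D28WO library lay above all of them. OLIG2 at D28WO was 3.72-fold higher than Untreated, 3.62-fold higher than D28 and 5.70-fold higher than D14, with log2 fold changes of 1.78 (SE 0.365), 1.76 and 2.27 (limma, adjusted p = 0.0022, 0.0067 and 0.0018). These 3 calls were kept under every alternative, with the change against Untreated between 1.29 and 1.98. OLIG1, its neighbour on chromosome 21, was listed at 0 in all D28WO libraries and reached at most 0.604 TPM in U87.

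SOX9 and NES were lower in the same D28WO libraries. SOX9 read 33.7, 36.5 and 31.5 TPM in Untreated, 26.7 and 29.1 at D3, 24.7 and 28.2 at D14, 31.2, 24.1 and 20.7 at D28, and 17.0, 12.8 and 19.0 at D28WO. D3, D14 and D28 overlapped each other below Untreated, with D28WO below all of them. SOX9 fell by 1.03 on the log2 scale at D28WO (SE 0.166; limma, adjusted p = 0.00045), a 2.09-fold lower mean, and at D28 it had adjusted p = 0.086. Quantile normalization and median-ratio size factors called SOX9 lower at D28 (log2 fold change -0.68 and -0.60; limma, adjusted p = 0.0096 and 0.015), as did leaving out D28 replicate 1 (-0.58, adjusted p = 0.034).

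NES read 40.2, 43.9 and 38.7 TPM in Untreated, 43.9 and 46.5 at D3, 26.2 and 30 at D14, 40.9, 39.6 and 41.1 at D28, and 20.9, 19.7 and 28.9 at D28WO. D3 lay above D28, Untreated overlapped each of them, and D14 and D28WO overlapped below them. NES fell by 0.81 on the log2 scale at D28WO against Untreated and by 0.80 against D28 (SE 0.129; limma, adjusted p = 0.00041 and 0.0016). At D14, where the IRF1 level was near that of Untreated, NES had adjusted p = 0.058 against Untreated (limma) and passed under quantile normalization (log2 fold change -0.70, adjusted p = 0.024) and median-ratio size factors (-0.70, adjusted p = 0.024). Its call between D14 and D3 (-0.67; limma, adjusted p = 0.034) was 1 of 6 genes tested, where 3.32% of all genes were called lower and 1.47% higher. That call was lost without any 1 of the 4 libraries: D3 replicate 2 or 3 (-0.71 and -0.63) or D14 replicate 2 or 3 (-0.57 and -0.76), with adjusted p 0.0851 to 0.21 (0.023 to 0.21 over all alternatives).

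GFAP was called higher than Untreated in U87 at D28 and D28WO, the other direction from U251 and at a far lower level, and the difference between the lines was not tested. The annotated span of GFAP overlaps that of CCDC103 on the opposite strand, which averaged 57.3 TPM over the U87 libraries. Its libraries read 5.30, 6.90 and 2.33 TPM in Untreated, 8.78 and 14.2 at D3, 5.57 and 9.36 at D14, 19.1, 15.5 and 7.90 at D28, and 13.9, 11.8 and 16.8 at D28WO. Untreated lay below D3, D28 and D28WO and overlapped D14, and the treated groups overlapped their neighbours. GFAP was 2.93-fold higher at D28 and at D28WO, with log2 fold changes of 1.38 and 1.45 (SE 0.371; limma, adjusted p = 0.020 and 0.0080), while D3 and D14 did not pass (1.15 and 0.59, adjusted p = 0.0785 and 0.43). The D28 call was lost without Untreated replicate 3 (1.02, adjusted p = 0.080), D28 replicate 1 (1.14, adjusted p = 0.076) or D28 replicate 2 (1.28, adjusted p = 0.067), and D3 was called without Untreated replicate 2 (1.41, adjusted p = 0.049). Quantile normalization gave 0.91 at D28 (adjusted p = 0.074), and the adjusted p at D28 ran from 0.0081 to 0.11 over all alternatives.

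NFIA and SALL2 were not called in any U87 comparison. NFIA ranged from 2.01 to 6.67 TPM over the 13 libraries, with the highest and lowest group means at D14 (4.85 ± 0.326 TPM, n = 2) and D3 (2.78 ± 1.08, n = 2). SALL2 ranged from 0.385 to 2.77 TPM, with both extremes in groups that overlapped Untreated. SOX2 was at 0 to 0.411 TPM and POU3F2 at 0.0430 to 0.526 TPM in every U87 library, and no 2 of their groups were apart. At these levels no difference was detectable, and with no filter on low values limma gave adjusted p = 0.42 for SOX2 and 0.70 for POU3F2 at D28WO against Untreated.

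Between the treated U87 groups, the count of 1 of 6 from D3 to D14 was that of NES. From D14 to D28 limma called 0 of 6, near the share of all genes, where 2.94% of all genes were called higher and 1.12% lower, and NES alone had an unadjusted p under 0.05 (adjusted p = 0.076). From D28 to D28WO, OLIG2 was higher and SOX9 and NES were lower, 3 of 6 genes where 9.90% of all genes were called higher and 8.44% lower. From D14 to D28WO, OLIG2 was higher and SOX9 lower, where 14.3% of all genes were called higher and 11.5% lower. With 6 genes, 1 called each way is near these shares. SOX9 fell by 0.61 between D28 and D28WO and by 0.69 between D14 and D28WO (limma, adjusted p = 0.025 and 0.018). The first was lost without D28 replicate 1 or 2 or D28WO replicate 1 or 2 (-0.45, -0.63, -0.64 and -0.46, adjusted p 0.054 to 0.10, and 0.0055 to 0.11 over all alternatives). The other was lost without D14 replicate 2 or 3 or D28WO replicate 2 (-0.78, -0.59 and -0.53, adjusted p 0.059 to 0.13, and 0.0027 to 0.13 over all alternatives).

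**Figure D3:**
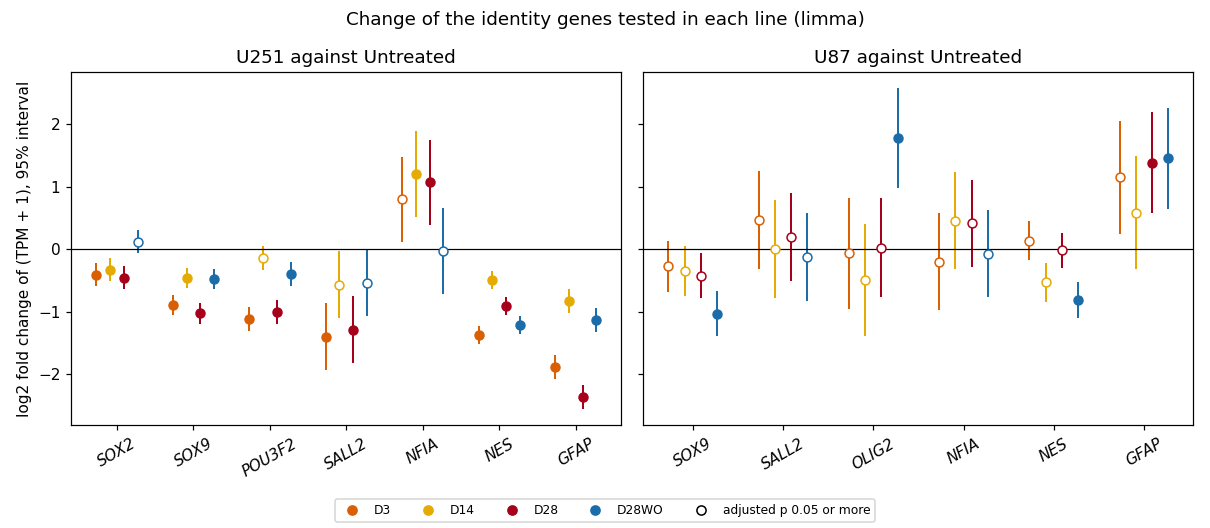
Log2 fold change of (TPM + 1) against Untreated (y axis) of the identity genes tested in U251 (left, 7 genes) and U87 (right, 6 genes), for D3, D14, D28 and D28WO by colour. Points are limma estimates, bars 95% intervals, and filled points have an adjusted p under 0.05. GFAP lies at -2.37 at D28 in U251 and at 1.38 in U87, and OLIG2 of U87 lies between -0.49 and 0.03 at D3, D14 and D28 and at 1.78 at D28WO.

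The annotated spans of some of these genes overlap those of others in GENCODE, and the sources used here do not state whether reads were counted by strand. The genes named in this paragraph were chosen after their values were seen. GFAP (chr17:44903159-44916937, minus strand, GRCh38) overlaps 2232 bases of CCDC103 on the opposite strand. CCDC103 was at 43.1 ± 8.53 TPM in Untreated U87, 68.8 ± 12.7 at D28 and 57.2 ± 1.24 at D28WO (SD, n = 3). At D3 and D14 it was at 62.9 ± 0.0522 and 56.1 ± 0.527 TPM (n = 2 each). These levels were well above GFAP of the same libraries. Means of both genes were above Untreated in every other group. The CCDC103 mean was higher at D3 than at D28WO, where the GFAP mean was lower at D3. Without strand, reads of GFAP and CCDC103 in U87 cannot be told apart there. In U251 the CCDC103 mean was 47.2 ± 5.00 TPM in Untreated, 27.3 ± 1.92 (D3), 39.7 ± 9.30 (D14), 42.7 ± 1.27 (D28) and 38.5 ± 5.84 (D28WO), far below GFAP. SOX2 (chr3:181711925-181714436, plus strand) lies inside SOX2-OT on the same strand, whose level in U251 was 372 ± 17.5 TPM in Untreated, 158 ± 15.5 (D3), 263 ± 37.5 (D14), 175 ± 12.3 (D28) and 262 ± 19.9 (D28WO, n = 3 each). SOX9 (chr17:72121020-72126416, plus strand) overlaps SOX9-AS1, which in U251 was at 42.5 ± 4.84 TPM in Untreated and at 26.2 ± 5.75 (D3), 25.1 ± 8.12 (D14), 32.7 ± 9.38 (D28) and 34.3 ± 5.47 (D28WO). Means of both genes were below Untreated in every other group. The SOX9-AS1 mean was higher at D28 than at D14, with overlapping libraries, whereas SOX9 was lower at D28. NFIA overlaps 144211 bases of NFIA-AS2 on the opposite strand, which in U251 was at 7.52 ± 0.768 TPM in Untreated and, from D3 to D28WO in the order of the groups, at 1.31 ± 0.336, 1.72 ± 0.867, 1.26 ± 0.572 and 0.596 ± 0.325 (SD, n = 3 each). Its mean was above that of NFIA in Untreated and below it in the other groups. How reads were divided between these genes was not tested.

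The wider lists of neural genes did not move one way in U251, where 25.9% of all genes were called higher and 14.7% lower at D28. At D28 the 23 tested of 28 neural stem and progenitor genes had 6 higher and 6 lower, with a median log2 fold change of 0.01 beside 0.16 of all genes tested. SOX21, a SOXB factor of progenitors, fell from 104 ± 3.78 to 19.9 ± 1.08 TPM (log2 fold change -2.33; limma, adjusted p = 1.1e-09), and DLL1, a NOTCH ligand, rose from 0.344 ± 0.218 to 2.76 ± 0.155 TPM (1.49; limma, adjusted p = 0.0013). Of 15 tested astrocyte genes, 3 were higher and 5 lower (median -0.25). S100B, a calcium-binding protein of astrocytes, fell from 184 ± 13 to 64.1 ± 5.03 TPM (-1.51; limma, adjusted p = 2.4e-06), while SPARCL1, a secreted matrix protein, rose from 15.7 ± 1.02 to 71.4 ± 1.70 (2.12; limma, adjusted p = 2.2e-07). Of 9 tested oligodendrocyte lineage genes, 1 was higher and 4 lower (median -0.50), among them the progenitor receptor PDGFRA (213 ± 10.7 to 42.0 ± 3.70 TPM, -2.32). Of 8 tested neuronal genes, 3 were higher and 1 lower (median 0.05), among them SYT1 and SNAP25 of synaptic vesicle release, at 0.95 and 0.94. With so few genes a list, the counts called higher, and the count called lower in the neuronal list, are near the shares of all genes, and the counts called lower in the other lists are above theirs.

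Family relatives of the 9 genes gave 0 higher and 8 lower of 17 tested in U251 at D28 (median -0.40), where 25.9% of all genes were called higher and 14.7% lower. In U87 at D28 the relatives gave 6 higher and 0 lower of 12 tested (median 0.29, beside 0.19 of all genes). POU3F3, a POU-domain relative of POU3F2, fell from 19.7 ± 1.27 to 7.84 ± 0.736 TPM in U251 (-1.23; limma, adjusted p = 6.4e-05). SOX5, which lacks an activation domain of its own, fell from 37.2 ± 5.65 to 20.2 ± 2.79 TPM in U251 (-0.85, adjusted p = 0.00064) and rose from 5.62 ± 1.91 to 14.5 ± 4.32 TPM in U87 (1.23, adjusted p = 0.0078, both limma). In U87 at D28, neural stem and progenitor genes had 3 higher and 2 lower of 19 tested, astrocyte genes 3 and 1 of 14, oligodendrocyte lineage genes 0 of 7 (limma, and 0 with an unadjusted p under 0.05) and neuronal genes 1 and 0 of 7. Beside the 17.2% of all genes called higher and 6.55% lower there, these 4 lists are near the shares of all genes, and the relatives are above that for higher genes. NOTCH3, a receptor of progenitors, fell from 53.2 ± 2.63 to 24.3 ± 4.19 TPM, and ID4, a helix-loop-helix inhibitor, rose from 3.80 ± 0.351 to 8.84 ± 1.36 TPM in U87 (-1.11 and 1.03; limma, adjusted p = 0.00054 and 0.0014). The lists share some genes with each other, and their counts are descriptions.

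**Figure D4:**
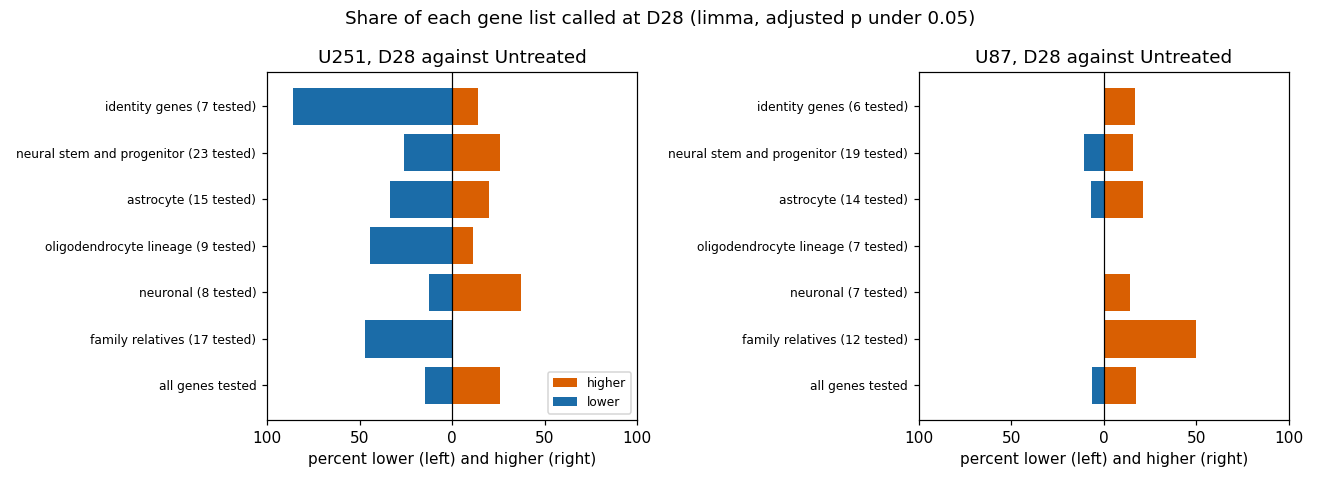
Share of tested genes (x axis, percent) called lower (left, blue) or higher (right, orange) at D28 against Untreated in U251 and U87, by list. In U251 the identity genes have 6 of 7 lower and all genes tested 14.7% lower, and in U87 the identity genes have 1 of 6 higher and all genes tested 17.2%.

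Markers of other cell types were read in the same libraries. The summed level of 6 leukocyte markers was 0.557 to 1.59 TPM in Untreated U251, at most 6.15 in its other groups and at most 3.26 in U87, and PTPRC and CD3E reached at most 1.47 and 0.308 TPM in any library. In U251 the sum of 7 fibroblast markers, of which LUM was listed at 0 in all 15 libraries, was 680.1 to 727 TPM in Untreated, 247 to 310.1 at D3, 469 to 512 at D14, 336 to 393 at D28 and 394 to 439 at D28WO. The sum of 3 endothelial markers was 26.6 to 38.4 TPM in Untreated U251, 2.45 to 3.46 at D3, 9.79 to 21.4 at D14, 4.16 to 4.82 at D28 and 4.31 to 8.80 at D28WO, and that of 4 epithelial markers 105 to 112, 50.2 to 62.4, 83.8 to 99.0, 60.6 to 83.9 and 64.4 to 73.1. The fibroblast, endothelial and epithelial sums were thus lower in the same groups as GFAP and NES, and the leukocyte sum was higher there. In U251, of the fibroblast, endothelial and epithelial lists, COL1A1, COL1A2, THY1, CDH5, VWF and KRT8 had means below Untreated in every other group. PDGFRB and KRT18 did so except at D14. LUM, DCN, COL3A1, PECAM1, EPCAM and CDH1, with group means of at most 2.04 TPM, did not follow. CDH5 made up most of the endothelial sum in Untreated and at D14, but not at D3, D28 or D28WO. It was at 27.6 ± 3.06 TPM in Untreated and 1.26 ± 0.675 at D28 (SD, n = 3), where PECAM1 was at 0.659 ± 0.909 and 2.04 ± 0.293. KRT18 was at 42.6 ± 5.69 TPM in Untreated and 53.7 ± 7.52 at D14, and at 23.9 ± 2.40, 35.9 ± 3.29 and 36.9 ± 5.99 at D3, D28 and D28WO. CD14, of the leukocyte list, was at 0.569 ± 0.602 TPM in Untreated and 4.51 ± 1.32 at D3. In U87 the fibroblast sum was 541 to 629 TPM in Untreated and 335 to 402 at D28WO, where SOX9 and NES were lower. Between these groups the means of COL1A1 and COL1A2 went from 281 to 129 and from 215 to 146 TPM. Those of PDGFRB and THY1 went from 47.3 to 30.3 and from 3.28 to 0.585 TPM. The member DCN was higher, at 7.19 ± 2.29 and 32.3 ± 0.871 TPM. LUM was at 19.2 and 19.1 TPM, and COL3A1 at 0.148 and 0.263. In U87 the 3 endothelial markers summed to at most 3.37 TPM, and the 4 epithelial markers to 34.2 to 61.2. Their part in the results was not tested.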

How the data were processed

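RNA of U87 and U251 was extracted, made into TruSeq libraries and sequenced as paired-end reads. Per the labels and the study's methods, the authors trimmed reads with Trim Galore, aligned them with STAR to GRCh38 and counted them with featureCounts. The authors deposited TPM values in 1 table a line, each column summing to the same total, and how TPM was computed is not given in the sources used here. A name occurs on 2 U87 columns, which fit no sample uniquely and were left out.

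Values were taken as log2(TPM + 1). All 5 groups of a line entered 1 fit of limma 3.58.1 in R 4.3.3 (lmFit, contrasts.fit and eBayes with a trend), over genes averaging 0.5 TPM or more. The 8 comparisons of a line were adjusted over all genes by Benjamini-Hochberg, and a gene was called at an adjusted p under 0.05. A fold change of means is a ratio of mean TPM, whereas log2 fold changes are on the log2(TPM + 1) scale and understate changes of low genes. All 9 genes are named, and from each wider list at most 2 genes with the largest change among those called at D28. Some genes that this rule would name are not reported here. The genes and lists were chosen with earlier results of these data known. Motif letters were searched on both strands of RefSeq promoter windows. The procedure was tested on simulated data. Tables and figures were made with Python 3.11.15. The alternatives were a pseudocount of 0.1, no filter, a filter at 1 TPM, quantile normalization, median-ratio size factors, fits of the 2 compared groups alone, a replicate block, array weights, the limit on fold change, and leaving out each library. Lines were never tested against each other.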

Additional observations from a re-analysis of the deposited data

Results flagged for a closer look

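Of the identity genes tested in both lines, 3 had every library of the compared groups apart, in opposite directions between the lines. None of these differences between lines was tested. The share of all genes that meet this rule was not taken, so the count does not set these genes apart. OLIG2, under the filter in U251, also lay apart between D28WO and D28, higher in U87 and lower in U251. GFAP had log2 fold changes against Untreated of 1.15 at D3, 1.38 at D28 and 1.45 at D28WO in U87, and of -1.88, -2.37 and -1.13 in U251. Between D28WO and D14 GFAP was at 0.87 in U87 and -0.31 in U251. NES went by -0.67 from D3 to D14 and by 0.51 from D14 to D28 in U87, and by 0.89 and -0.43 in U251. SOX9 went by -0.61 from D28 to D28WO in U87 and by 0.56 in U251. Of the U87 values, those of GFAP at D3 and between D28WO and D14 and that of NES from D14 to D28 did not pass the threshold of limma.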

How the results depend on the processing

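Of 53 calls of single identity genes in 16 comparisons, 40 were kept under every alternative other than the limit on fold change and 13 were lost under at least 1, and none changed direction. With that limit 22 of the 53 remain. Another 9 results were called only under an alternative: GFAP at D3, NES at D14, SOX9 at D28 and NES between D28WO and D14 in U87, and in U251 NFIA at D3, POU3F2 at D14, SOX2 at D28WO, SALL2 between D28 and D14 (-0.72, adjusted p 0.0096 to 0.21) and POU3F2 between D28WO and D14 (-0.24, adjusted p 0.0073 and 0.025 where called). In U251 the number of identity genes called kept within 1.5 times its value except with the limit on fold change (1 at D14, 4 at D28, 2 at D28WO, 1 between D14 and D3, 1 between D28 and D14, 2 between D28WO and D28 and 1 between D28WO and D14) and when libraries were left out at D14, where it ran from 3 to 5. In U87, quantile normalization and median-ratio size factors gave 1 at D14, and median-ratio size factors gave 2 at D28. Fits of only the 2 compared groups gave 0 at D28, 0 between D14 and D3 and 1 between D28WO and D14. The count between D14 and D3 was also 0 with no filter and with the limit, and the limit gave 1 between D28WO and D28 and 1 between D28WO and D14. Leaving out libraries of U87 gave 0 to 1 at D3, 0 to 1 at D28, 0 between D14 and D3 and 1 to 3 between D28WO and D14 (3 without D28WO replicate 3, where NES was called too). The cause of these changes was not tested. Samples that share a replicate number did not deviate together (correlation of deviations at most 0.048). This gave no sign of pairing, but with groups of 2 or 3 libraries it cannot exclude pairing. A replicate block left the counts of identity genes as they were (7 at D28 in U251 and 4 at D28WO in U87). Leaving out a library of a group of 2 assumes that the lone library varies like the other groups. TPM keeps no depth, so nothing can be said of the lowest detectable level of SOX2, POU3F2 and OLIG1 in U87 or of OLIG1 and OLIG2 in U251.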

Other observations

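The genes whose log2(TPM + 1) was most like that of an identity gene over the libraries of a line were read among genes averaging 5 TPM or more, as a description with no test, since the libraries share their groups. In U251 (15 libraries, 14380 genes) GFAP was most like FUT11, a fucosyltransferase gene (Pearson r = 0.99; group means of 157, 89.6, 123, 70.2 and 115 TPM in Untreated, D3, D14, D28 and D28WO). NES was most like GAP43, a gene of growing axons (r = 0.99), at 79.5, 6.43, 32.9, 15.4 and 10.6 TPM in the same order. SOX9 was most like SOX21-AS1 (r = 0.99; 87.3, 22.5, 44.9, 18 and 46.9 TPM), POU3F2 like LINC00639 (r = 0.98) and SOX2 like C1QL1 (r = 0.98; 155, 106, 119.7, 104 and 178 TPM). In U87 (13 libraries, 14069 genes) OLIG2 was most like H6PD (r = 0.95) and CBLB (r = 0.95), of which CBLB stood at 51.2 TPM at D28WO and at 25.4 to 29.2 in the other groups. SOX9 of U87 was most like GOLIM4 (r = 0.96), NES like ADORA1 (r = 0.94) and GFAP like TTC8 (r = 0.99).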
